A study of Mus musculus with 31 samples.

Results

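Myc lies in a gene desert on mouse chromosome 15, and the peaks of a cohesin loader, NIPBL, and of a cohesin subunit, Rad21, were followed there through 26 ChIP-seq peak lists. All deposited peaks overlapping chr15:61300001-63400000 (mm9, 2.1 Mb) were taken, which gave 20275 of 17061930 peaks, or 0.119%. The gene itself was placed at chr15:61817000-61822000, and that 5 kb stretch is called the Myc interval here. No mm9 gene annotation was used, so peaks are given by position and by distance from 61817000, the Myc start. In the RefSeq gene table of another build (GRCm38.p6) the long noncoding RNA gene Pvt1 is the next gene after Myc, followed by a run of predicted genes and pseudogenes. Pvt1 was not placed in mm9 here, and no promoter sequence of either gene was used.

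All cells were AID-deficient and of strain C57BL/6, so every group, controls included, lacks the deaminase that starts class switching. NIPBL was measured in splenic mature B cells without stimulation (3 libraries) and after 48 h with anti-CD40 and IL-4 (3), and in the mouse B lymphoma line CH12F3, titled CH12F3NCdel, without stimulation (2) and after 24 h with anti-CD40, IL-4 and TGF-β (2). Rad21 was measured in the same 4 conditions, with 3, 3, 3 and 4 libraries, and in a CH12F3-derived line titled i3CBEs after the 24 h stimulation (3). The cell type field of the Rad21 libraries of both lines reads splenic B cells, while their titles and source name the lines, and the titles were followed. CH12F3 is 1 tumour line, splenic and CH12F3 cells were stimulated with different mixtures for different times, and whether replicates are different animals or cultures is not stated in the labels. The p-values therefore speak of the spread among these libraries, which may be technical.

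Cohesin is a ring-shaped complex that encircles DNA and extrudes it into loops, NIPBL helps to load it and keeps it moving, and Rad21 is the subunit that closes the ring. Myc encodes a transcription factor that drives growth and division and is induced early when B cells are activated. Its promoter is contacted by enhancers scattered over the surrounding desert, which makes the locus a common example of looping over long distances. Pvt1 shares this desert, and its promoter is known to compete with that of Myc for some enhancers.

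The lists held 42659 to 1332862 peaks, and the splenic Rad21 lists were especially uneven, with 149409 to 1236385. Read counts are not part of the lists, and the depth behind each peak is unknown. To compare like with like, the 20000 peaks with the highest −log10 p of each library were used and are called top peaks. They amounted to 418 of 520000 in the region (0.0804%), a share close to the 0.0795% of the genome's 10 kb bins that the region makes up. The percent of each 10 kb bin covered by top peaks was compared with limma over the whole genome, and a bin is called where the Benjamini-Hochberg adjusted p is under 0.05. The 5 input libraries were not analysed here, so whether input reads were spread evenly over the region was not tested.

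NIPBL lay over Myc in all 10 libraries. A site at chr15:61815559-61820003, across the start and most of the gene, and a second at chr15:61814220-61815473, just before it, held a top peak in 10 of 10 libraries, and no other NIPBL site of the region did. In unstimulated spleen 58.6, 58.1 and 49.7% of the Myc interval was covered by top peaks. After stimulation of splenic cells the values were 64.9, 73.6 and 69.3%, all above the unstimulated ones. In CH12F3 they were 74.9 and 51.3% without stimulation and 60.1 and 57.0% with it, and the groups overlapped. With all deposited peaks the 10 libraries lay between 60.9 and 77.4% and the splenic groups overlapped. The fold enrichment of the best peak over Myc, the authors' own value within each list, went the other way, from 19.3, 17.6 and 15.7 in unstimulated to 9.21, 10.0 and 14.9 in stimulated spleen, and from 14.9 and 16.1 to 12.9 and 9.95 in CH12F3, without overlap in either. The fold at rank 20000 was also lower in the stimulated splenic lists, 5.80 to 6.81 against 7.67 to 9.87. Folds come from lists called separately and were not tested.

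The splenic difference in top peaks came from the end of the gene. A site at chr15:61820739-61821658 held a top peak in 3 of 3 stimulated and 0 of 3 unstimulated splenic libraries, and in 1 of 2 unstimulated and 0 of 2 stimulated CH12F3 libraries. Peaks outside the top peaks were deposited there in 3 of 3 unstimulated splenic libraries. The fold of the best peak was 5.05 to 6.88 in these and 5.88 to 7.72 in stimulated spleen, which overlapped. The bin that holds it, chr15:61820001-61830000, was covered to 4.0, 7.4 and 8.8% in stimulated and to 0% in each unstimulated splenic library. The difference was 6.76 percentage points (SE 1.38) but was not called (limma, adjusted p = 0.0786). With all deposited peaks this bin was covered to 13.2 ± 4.99% (SD, n = 3) in stimulated and to 11.3 ± 5.25% (SD, n = 3) in unstimulated spleen. The other bin of Myc, chr15:61810001-61820000, was covered to 44.7 ± 4.2% (SD, n = 3) without and to 41.1 ± 2.0% (SD, n = 3) with stimulation in spleen, and to 41.3 ± 8.7% and 50.6 ± 6.6% (SD, n = 2 each) in CH12F3. The 2 groups of stimulated cells did not overlap in this bin and the other 3 pairs of groups did. None of these differences was called: the adjusted p was 0.533 for stimulation in spleen, 0.974 for stimulation in CH12F3, 0.825 between unstimulated and 0.404 between stimulated spleen and CH12F3 (limma).

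Rad21 over Myc differed more between libraries. In CH12F3, top peaks covered 57.8, 58.1 and 58.3% of the Myc interval without stimulation and 59.0, 57.4, 20.0 and 68.7% with it. In spleen they covered 57.8, 0 and 13.4% without and 5.8, 0 and 0% with stimulation, and in i3CBEs 11.1, 14.9 and 15.0%. By top peaks CH12F3 libraries were thus all at or above 20.0%, and stimulated spleen and i3CBEs were all below that. With all deposited peaks Rad21 covered 48.6, 100 and 76.5% in stimulated and 60.3 to 86.7% in unstimulated spleen. CH12F3 was then at 62.9 to 86.1%, which overlapped both, and i3CBEs stayed lower at 15.0 to 23.3%.

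**Figure D1:**
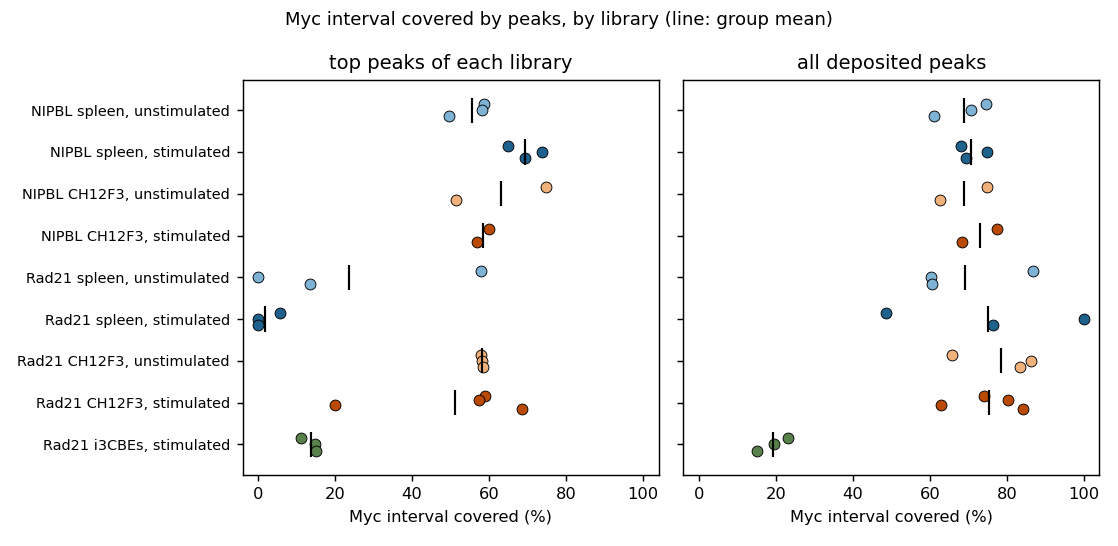
Percent of the Myc interval (x axis) covered by the 20000 top peaks (left) and by all deposited peaks (right), 1 point per library, with a line at each group's mean and rows for the 9 groups. NIPBL covers at least 49.7% of the interval in all 10 libraries, while Rad21 top peaks range from 0 to 68.7%.

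In the bin chr15:61810001-61820000 the mean Rad21 coverage was highest in unstimulated CH12F3 (53.1 ± 0.624%, SD, n = 3), followed by stimulated CH12F3 (50.7 ± 11.6%, n = 4), unstimulated spleen (30.4 ± 19.9%, n = 3), i3CBEs (14.0 ± 1.49%, n = 3) and stimulated spleen (3.92 ± 6.79%, n = 3). Only stimulated spleen against stimulated CH12F3 was called, at 46.8 points lower in spleen (SE 8.95, limma adjusted p = 0.00466). Unstimulated against stimulated CH12F3 (adjusted p = 0.989), unstimulated spleen against unstimulated CH12F3 (0.0965), i3CBEs against stimulated CH12F3 (0.0723) and stimulated against unstimulated spleen (0.159) were not called by limma. The called difference kept its call in each of 7 fits without 1 library, and lost it with any other choice of peaks: with all deposited peaks it was −4.64 points (adjusted p = 0.645). In 2 of the 3 stimulated splenic lists the best peak over Myc ranked 21376 and 21714, just outside the top peaks.

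Taken over all deposited peaks, the Rad21 lists of the lines were crowded across most of the desert. Relative to an even spread of each list over the genome, the region held 6.93, 10.4 and 6.15 times its share of all deposited Rad21 peaks in the 3 unstimulated CH12F3 libraries and 5.72, 7.09, 4.91 and 11.1 times in the 4 stimulated ones. The values were 3.83, 4.24 and 3.68 in i3CBEs, and 1.36 to 1.64 in unstimulated and 1.52 to 1.74 in stimulated spleen. On this measure every CH12F3 library lay above every i3CBEs library, and every i3CBEs library above every splenic one. By count the top peaks showed no crowding of this size. The region held 0.04 to 0.08% of them in unstimulated and 0.05 to 0.105% in stimulated CH12F3. It held 0.075 to 0.12% in i3CBEs and 0.03 to 0.065% in spleen, beside the 0.0795% of genome bins. CH12F3 was not above i3CBEs in that count. A count leaves out peak width. By length covered by top peaks, region over genome was 1.61 to 5.63 in unstimulated and 2.66 to 5.91 in stimulated CH12F3. It was 1.45 to 2.18 in i3CBEs, and 1.24 to 1.52 in unstimulated and 0.449 to 0.803 in stimulated spleen. For the density of all deposited peaks the CH12F3 mean exceeded the splenic mean 5.27-fold without and 4.46-fold with stimulation. A two-sided exact permutation test gave p = 0.1 and 0.0286, the lowest these group sizes allow, and 0.18 each after adjustment over 9 comparisons. With 9 comparisons of this size no adjusted p below 0.0857 was possible. This measure was added after the peak lists had been examined. Stimulated and unstimulated libraries overlapped for Rad21 in CH12F3, for Rad21 in spleen and for NIPBL in spleen (two-sided exact permutation p = 0.686, 0.3 and 0.2). Replicate numbers pair 3 of the CH12F3 Rad21 libraries of each state, and in 3 of 3 pairs the stimulated library was the lower one. The mean difference was −1.92 ± 1.21 (SD of 3 paired differences; two-sided exact sign-flip permutation p = 0.25, the lowest that 3 pairs allow), beside −0.634 with the unpaired stimulated replicate 4, the densest of the 7 at 11.1.

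**Figure D2:**
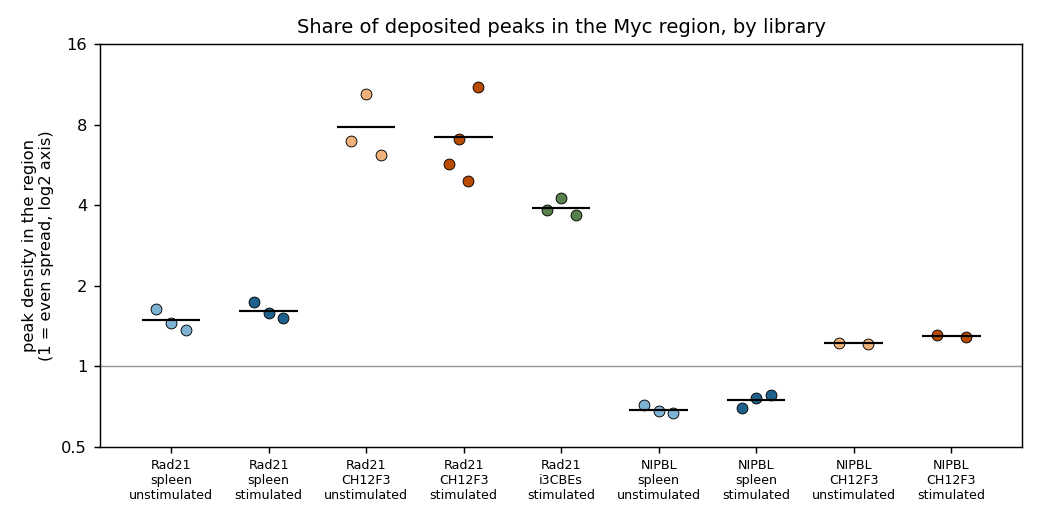
Density of all deposited peaks in the 2.1 Mb region relative to an even spread (y axis, log2 scale), 1 point per library and a line at each group's mean. Rad21 in CH12F3 lies between 4.91 and 11.1, i3CBEs between 3.68 and 4.24, and no other library lies above 1.74.

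The part of list length in these values was not tested. Among splenic Rad21 lists the 3 of over 1000000 peaks gave 1.45, 1.58 and 1.52 and the 3 shorter lists 1.64, 1.36 and 1.74. The CH12F3 lists held 95464 to 271662 peaks and the i3CBEs lists 42659 to 97738. In CH12F3 the shortest list gave 5.72, the longest 4.91, and the list of 106966 peaks 11.1. Rad21 lists were called against a named control in all 16 libraries, and i3CBEs had a control of its own.

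Over the genome's 2584 windows of 1 Mb, chr15:62000001-63000000 held the densest Rad21 peaks of all in each of the 7 CH12F3 libraries, at 6.37 to 14.3 times an even spread. The same window ranked 13th or 14th in the 3 i3CBEs libraries and between 8th and 693rd in the 6 splenic ones. NIPBL peaks ranked it 653rd to 894th in the 4 CH12F3 libraries and 2024th to 2478th in the 6 splenic ones. In CH12F3 the stretches of equal length on either side of the region held 1.59 to 5.73 and 1.63 to 3.55 times an even share of Rad21 peaks, below the region in each library. Chromosome 15 as a whole held 0.991 to 1.80 times its share.

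Within the region the Rad21 crowding had a definite shape. In stimulated CH12F3 the mean density over 4 libraries was 8.21 in the window chr15:61300001-61400000, 4.49 in chr15:61600001-61700000, and 10.1 in the window that holds Myc. It reached 15.2 in chr15:62100001-62200000, 283 to 383 kb after the Myc start, and was still 10.6 in chr15:62600001-62700000. It was 4.09 in chr15:62800001-62900000 and 1.71, 1.28 and 1.03 in the next 3 windows, so the crowding ended about 1 Mb after Myc. Unstimulated CH12F3 followed the same course, with 17.4 in chr15:62100001-62200000 and 1.04 in chr15:62900001-63000000. In i3CBEs the maximum was as high, 15.5, and was narrower: density was 2.33 in chr15:62400001-62500000, where stimulated CH12F3 had 10.5. Splenic means did not pass 2.85 in any of the 21 windows.

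**Figure D3:**
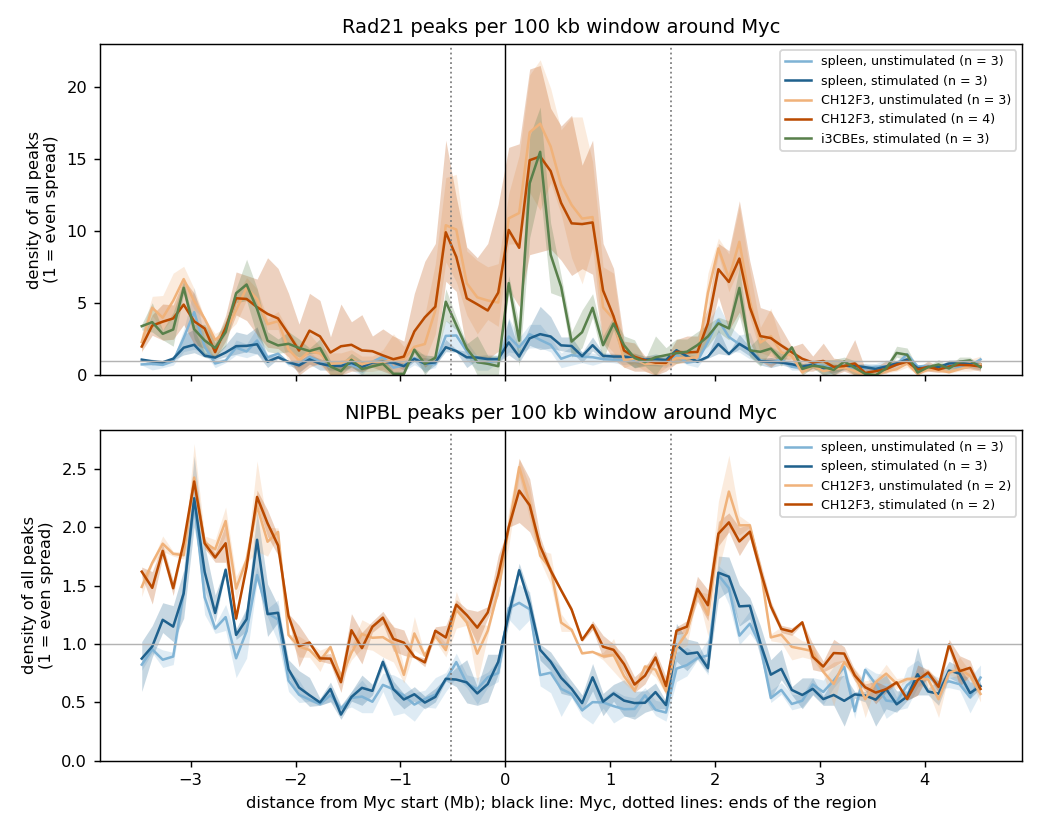
Density of all deposited peaks per 100 kb window (y axis, 1 is an even spread) against the distance from the Myc start in Mb (x axis), for Rad21 (top) and NIPBL (bottom). Lines are group means and bands run from the lowest to the highest library; Rad21 in both lines peaks 283 to 383 kb after Myc, and a further rise follows about 2 Mb after Myc, outside the region.

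The windows were compared by limma on log2(density + 0.1). Rad21 density was lower in unstimulated spleen than in unstimulated CH12F3 in 16 of 21 windows and higher in 0, where 8.39% of all 25683 windows were lower. Between stimulated cells it was lower in spleen in 13 of 21 windows and higher in 0, against 4.65% lower over all windows. The median difference over the 21 windows was −2.06 and −1.96 on this log2 scale, where the median over all windows was 0.52 and 0.49. Without the 3 splenic lists of over 1000000 peaks, which leaves 2 unstimulated libraries and 1 stimulated library, 10 and 2 windows were called lower, the lone library being assumed to vary like the other groups. The median difference over the 21 windows was then −2.17 and −1.84. For i3CBEs against stimulated CH12F3, 0 of 21 windows were called in either direction by limma, 11 were lower at an unadjusted p under 0.05, and 0.382% of all windows were called lower.

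NIPBL density differed between the cells in the same direction and by less. The region held 0.666 to 0.715 times an even share of NIPBL peaks in unstimulated and 0.697 to 0.782 times in stimulated spleen, and 1.21 to 1.22 and 1.28 to 1.31 times in CH12F3. The splenic and CH12F3 libraries did not overlap. The stretches of equal length before and after the region held 0.703 to 0.794 and 0.771 to 0.898 times an even share in spleen. In CH12F3 they held 1.15 to 1.22 and 1.16 to 1.21 times. The NIPBL difference was thus not particular to the region. By limma 18 of 21 windows were lower in spleen without stimulation, where 23% of all windows were, and 17 of 21 with stimulation, where 5.93% of all windows were. In CH12F3 the replicate called without a named control and the one called with it gave 1.22 and 1.21 without stimulation, and 1.31 and 1.28 with it. The NIPBL maximum of the region in CH12F3, 2.31 to 2.51 on average, was in chr15:61900001-62000000, nearer to Myc than the Rad21 maximum.

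Single sites were compared by whether they hold a top peak, and a site is called present in a library where it does. Top peaks of the 16 Rad21 libraries merged into 52 sites, of which 26 were present in 1 library only and 16 in every library of at least 1 group. No site was present in all 16 libraries. The nearest to that was chr15:61806332-61807686, 10.0 kb before the Myc start, with a top peak in 15 libraries, all but stimulated spleen replicate 3. The site over Myc, chr15:61813979-61820432, and one at chr15:62630879-62635456, 816 kb after the Myc start, followed with 14 libraries each.

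A set of Rad21 sites reached the top peaks mostly in unstimulated spleen. Sites at chr15:61371835-61374269, chr15:61999467-62003571, chr15:62008853-62010144 and chr15:62040887-62041803 held a top peak in 3 of 3 unstimulated splenic libraries and in none of the other 13. Their neighbours chr15:61377595-61379223 and chr15:62011293-62014256 were present in 3 of 3 as well, and in 4 of the 10 libraries of the lines each. None of these sites held a top peak in stimulated spleen. They were not empty there: with all deposited peaks each of them but chr15:62040887-62041803, for which this was not computed, had a peak in 3 of 3 stimulated splenic and in 7 of 7 CH12F3 libraries, and in 2 or 3 of 3 i3CBEs libraries. At chr15:61371835-61374269, for example, the highest fold was 8.23 to 13.4 in the unstimulated splenic lists, 3.51 to 6.07 in the stimulated ones, and 3.87 to 5.29 in stimulated CH12F3. They lie in 2 clusters, 444 and 439 kb before and 185 to 224 kb after the Myc start.

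After stimulation of splenic cells, 4 of the 15 tested bins were called, against 2.82% of all tested bins. The bin chr15:62000001-62010000 was covered to 37.9, 43.8 and 24.6% without and to 0% in each library with stimulation (difference −35.4 points, SE 6.32, limma adjusted p = 0.0303). In chr15:61370001-61380000 coverage was 31.5, 31.2 and 26.7% without and 0% with stimulation (−29.8 points, SE 4.34, adjusted p = 0.0302). A smaller fall was called in chr15:62040001-62050000, from 8.0, 8.7 and 4.8% to 0% (adjusted p = 0.0466). In the other direction chr15:62190001-62200000 went from 0% in each to 7.1, 7.5 and 7.2% (adjusted p = 0.0345). The groups did not overlap in any of these 4 bins, and each bin was at 0% in every library of 1 state. Only bins covered in at least 2 libraries of the fit were tested, so each passed only through the group where it is high. The p-values of these 4 bins therefore add no support to the differences.

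These calls rest on which peaks count as top peaks. In the bin chr15:62000001-62010000 all deposited peaks still covered 11.9, 51 and 30.3% in stimulated spleen, beside 54.2, 54.4 and 26.6% without stimulation, and the groups overlapped. No bin of the region was called with 10000 or 40000 top peaks, all deposited peaks, a minimum −log10 q of 5, equal covered length or no filter on covered bins. All 4 calls were also lost when any 1 of the 3 stimulated libraries was left out, which gave adjusted p = 0.0795, 0.108 and 0.143 in each of the first 2 bins (limma).

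No such call was made in CH12F3, and i3CBEs had stimulated libraries only. In CH12F3 limma called 0 of 19 tested bins after stimulation, the unadjusted p was under 0.05 for 2 higher bins and 0 lower ones, and 0.0262% of all tested bins were called. The effect of stimulation differed between spleen and CH12F3 in 3 of 23 bins, all more negative in spleen, where 5.89% of all tested bins were called. They were chr15:62000001-62010000 (−35.4 points, adjusted p = 9.2e-05), chr15:61370001-61380000 (−31.4 points, 0.00139) and chr15:62040001-62050000 (−7.17 points, 0.000543). In the first and last of these bins top peaks covered 0% in every CH12F3 library of both states. There was thus no top-peak coverage to lose, and the difference of effects restates the splenic fall. The first and last bins also passed the filter on covered bins only through unstimulated spleen, so their p-values add no support. No bin of the region was called in this comparison with another choice of peaks.

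**Figure D4:**
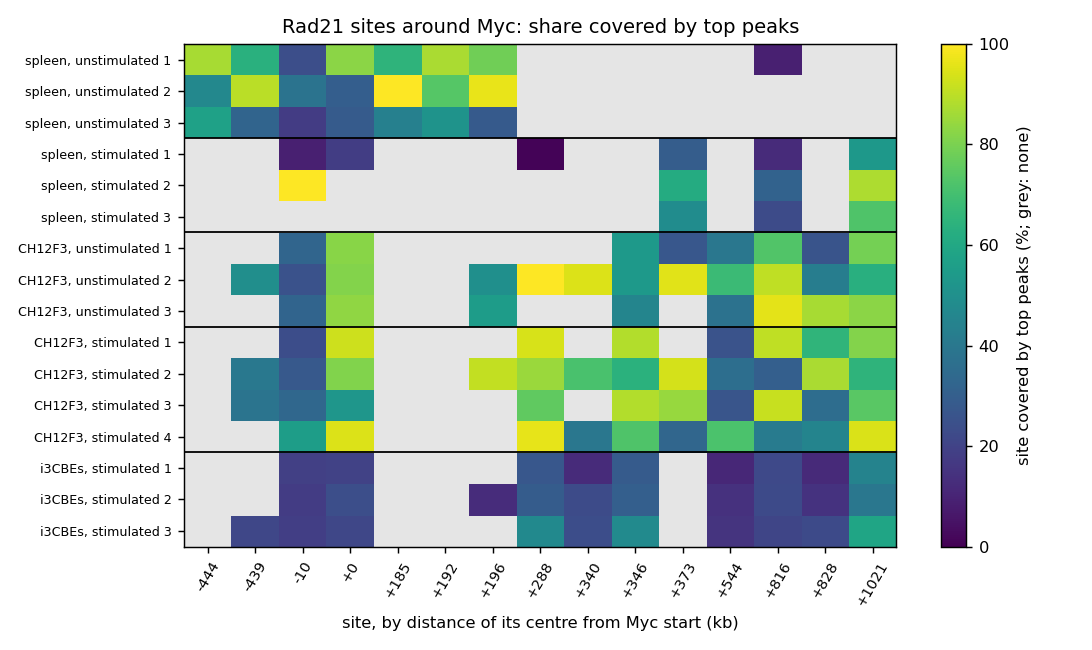
Share of each of 15 Rad21 sites covered by top peaks (colour, %, grey for none) in the 16 libraries (rows, black lines between groups), with sites ordered by the distance of their centre from the Myc start in kb. The sites 444 kb before and 185 and 192 kb after Myc are filled in unstimulated spleen only, and the 3 sites 373, 816 and 1021 kb after Myc are filled in all 3 libraries of stimulated spleen.

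Another set reached the top peaks in both lines and not in spleen. Sites at chr15:62162321-62163699, chr15:62359662-62361592 and chr15:62643976-62645148 held a top peak in 10 of 10 libraries of CH12F3 and i3CBEs and in 0 of 6 splenic libraries. Weaker peaks were deposited there in spleen, in 3 of 3 stimulated libraries at each site and in 2, 2 and 3 of 3 unstimulated ones. Their mean fold was 4.10 to 4.91 in stimulated and 4.90 to 5.39 in unstimulated spleen, beside 7.08 to 10.2 in CH12F3 and 5.97 to 6.99 in i3CBEs. A site at chr15:62101676-62107994, 288 kb after the Myc start and within the window of highest Rad21 density, was present in 4 of 4 stimulated CH12F3 and 3 of 3 i3CBEs libraries, in 1 of 3 unstimulated CH12F3 libraries and in 1 of 6 splenic ones. With all deposited peaks it had a peak in every library of each group. The fold of the best peak was 5.93 to 9.44 in unstimulated and 7.12 to 9.50 in stimulated CH12F3, which overlapped. At the far end, chr15:62837829-62838372, 1021 kb after Myc, was present in 10 of 10 libraries of the lines and 3 of 3 of stimulated spleen, and in 0 of 3 of unstimulated spleen. It is a narrow site of 544 bases and lies in the last 100 kb window before Rad21 density in CH12F3 fell to 1.71. The site at 816 kb likewise held a top peak in all libraries of these groups, and in 1 of 3 of unstimulated spleen.

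Between unstimulated cells 9 of 23 tested bins were called for Rad21, 4 higher and 5 lower in spleen, where 27% of all tested bins were called, so the region's share is not far from the background. The lower bin of largest size, chr15:62630001-62640000, was covered to 4.0, 0 and 0% in spleen and to 33.3, 41.4 and 44.0% in CH12F3 (−38.2 points, SE 6.15, limma adjusted p = 0.00045). The 4 higher bins all hold sites described above with a top peak in every unstimulated splenic library. Of these, chr15:61990001-62000000, chr15:62000001-62010000 and chr15:62040001-62050000 were covered in too few other libraries to pass the filter without that group. Their p-values therefore add no support to the difference. Between stimulated cells 6 of 23 bins were called, all lower in spleen, where 8.24% of all tested bins were called. Beside the bin of Myc, the largest was chr15:62100001-62110000, covered to 0.7, 0 and 0% in spleen and to 59.4, 53.6, 47.7 and 60.8% in CH12F3 (−55.1 points, SE 11.3, adjusted p = 0.00674). That call held with 40000 top peaks and with all deposited peaks (adjusted p = 0.000322 and 0.0244), and was lost with equal covered length (0.636). Neither comparison of spleen with CH12F3 kept any call in the region with equal covered length.

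In i3CBEs against stimulated CH12F3, 0 of 19 tested bins were called by limma, 9 lower bins and 0 higher ones had an unadjusted p under 0.05, and 0.411% of all tested bins were called. In the region i3CBEs top peaks covered 0.303 to 0.521% of the sequence and those of stimulated CH12F3 1.06 to 1.86%, without overlap (two-sided exact permutation p = 0.0286, 0.129 after adjustment over 9 comparisons). The i3CBEs peaks were narrower everywhere: the median top peak was 238 to 281 bases wide over the genome in i3CBEs and 300 to 444 in stimulated CH12F3, and the part of peak width in this difference was not tested. All 8 named sites that every stimulated CH12F3 library held as top peaks were also top peaks in every i3CBEs library.

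NIPBL top peaks of the region numbered 28 and 39 in unstimulated and 29 and 30 in stimulated CH12F3, and 9 to 17 in spleen. They were 0.14 to 0.195% of the top peaks in CH12F3 and 0.045 to 0.085% in spleen, beside 0.0795% of genome bins. Over the 10 libraries they merged into 147 sites. Of these, 134 were present in 1 library only and 9 in every library of at least 1 group. How often sites are shared over the genome was not computed. At chr15:61868175-61870372, 52.3 kb after the Myc start, a top peak was present in 4 of 4 CH12F3 and 3 of 3 stimulated splenic libraries and in 1 of 3 unstimulated splenic libraries. The site at chr15:62012258-62013872, 196 kb after Myc, was present in 3 of 3 unstimulated and 1 of 3 stimulated splenic libraries, and in 1 of 2 unstimulated and 2 of 2 stimulated CH12F3 libraries. This NIPBL site lies inside the Rad21 site chr15:62011293-62014256, which held a top peak in 3 of 3 unstimulated and 0 of 3 stimulated splenic libraries. Its highest fold enrichment, again the authors' own value, was 18.5, 20.8 and 17.4 in the unstimulated and 5.95, 7.75 and 6.19 in the stimulated splenic lists.

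**Figure D5:**
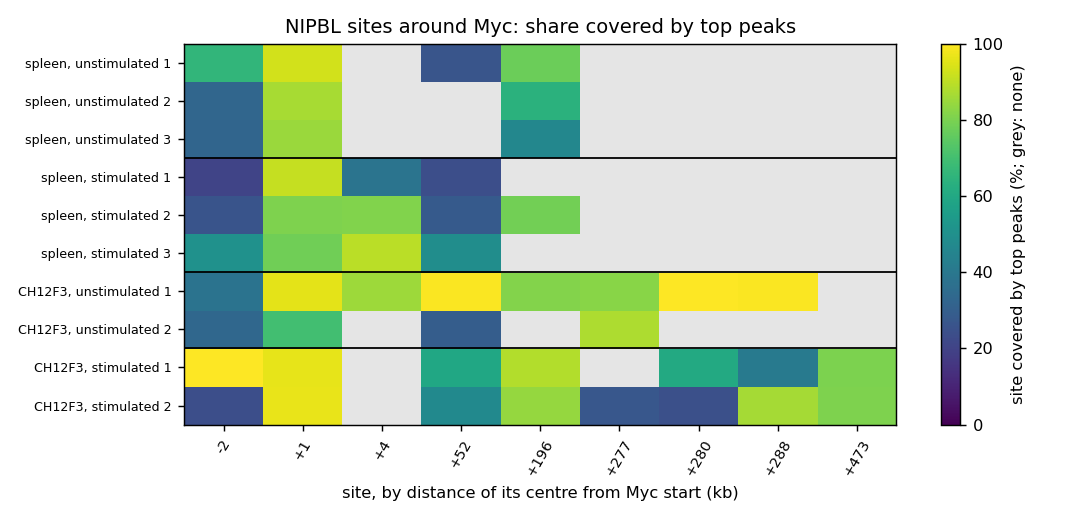
Share of each of 9 NIPBL sites covered by top peaks (colour, %, grey for none) in the 10 libraries (rows, black lines between groups), ordered by the distance of the site centre from the Myc start in kb. The sites at −2 and +1 kb are filled in all 10 libraries, and the 4 sites from 277 kb on only in CH12F3. Peaks outside the top peaks, which are not drawn, were deposited at these 4 sites in spleen as well.

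The 4 NIPBL sites from 277 to 473 kb after Myc held no top peak in any splenic library. Other peaks were deposited there, in 3 of 3 stimulated splenic libraries at each site and in 3, 3, 2 and 1 of 3 unstimulated ones. Their mean fold was 4.04 to 4.96 in stimulated and 5.60 to 6.49 in unstimulated spleen. In CH12F3 it was 8.18 to 10.7 with stimulation. Without stimulation it was 7.90 to 10.8 at the nearest 3 sites and 4.25 at the farthest. The nearest 3 were present in 3 of 4 CH12F3 libraries each, and the site at chr15:62289638-62290059 in 2 of 2 stimulated and 0 of 2 unstimulated ones. The site at chr15:62104539-62106001 lies inside the Rad21 site chr15:62101676-62107994. By limma 1 of 36 tested bins was called lower in unstimulated spleen than in unstimulated CH12F3, chr15:61980001-61990000 (−2.88 points, adjusted p = 0.00818), where 2.13% of all tested bins were called. Between stimulated cells 2 of 36 were called lower in spleen, chr15:62280001-62290000 (−3.1 points, adjusted p = 0.005) and chr15:62310001-62320000 (−1.57 points, 0.018), where 3.78% of all tested bins were called. These shares are near the background. The first of these bins held NIPBL top peaks only in unstimulated CH12F3, and the other 2 only in stimulated CH12F3. Each thus passed the filter on covered bins only through the group where it is high, and its p-value adds no support to the difference.

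Stimulation gave no called NIPBL bin in the region. In spleen 0 of 8 tested bins were called by limma, 1 higher bin and 0 lower ones had an unadjusted p under 0.05, and 2.98% of all tested bins were called. In CH12F3 it was 0 of 24, 2 higher bins and 1 lower bin had an unadjusted p under 0.05, and 0% of all tested bins were called. The effect of stimulation was not called different between the cells in any of 36 bins, although 3 higher and 3 lower bins had an unadjusted p under 0.05, and 0.00972% of all tested bins were called (limma). Within each antibody, the comparisons of spleen with CH12F3 and those of stimulation share libraries.

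Summed over the region, top peaks covered 0.307 ± 0.0548% (SD, n = 3) of the sequence for NIPBL in unstimulated and 0.325 ± 0.0419% (n = 3) in stimulated spleen, and 0.734 ± 0.488% and 0.599 ± 0.0302% (n = 2 each) in CH12F3. For Rad21 the values were 0.681 ± 0.227% (n = 3) and 0.279 ± 0.158% (n = 3) in spleen, 1.04 ± 0.681% (n = 3) and 1.36 ± 0.348% (n = 4) in CH12F3, and 0.433 ± 0.115% (n = 3) in i3CBEs. Spleen lay below CH12F3 without overlap for NIPBL in both states and for Rad21 after stimulation. No comparison was below 0.05 after adjustment over the 9 made. The lowest adjusted exact permutation p was 0.129, for stimulated Rad21 between spleen and CH12F3 and between i3CBEs and CH12F3. The same peaks covered unequal parts of the genome. Region over genome coverage was 0.542 to 0.693 for NIPBL in spleen and 1.67 to 2.98 in CH12F3. For Rad21 it was 1.24 to 1.52 in unstimulated and 0.449 to 0.803 in stimulated spleen. It was 1.61 to 5.63 and 2.66 to 5.91 in CH12F3, and 1.45 to 2.18 in i3CBEs. These ratios were not tested.

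The 2 antibodies met at few places. In stimulated CH12F3, 26 of 124 Rad21 top peaks of the region, counted over 8 pairs of libraries, overlapped a NIPBL top peak by at least 1 base, a mean of 21.0 ± 2.5% (SD over 8 pairs, which share libraries), beside 4.73 ± 0.596% over the genome. In unstimulated CH12F3 the share was 14.1 ± 6.67% (6 pairs) beside 8.42 ± 4.22%, in unstimulated spleen 21.6 ± 5.29% (9 pairs) beside 13.8 ± 3.29%, and in stimulated spleen 6.48 ± 10.0% (9 pairs) beside 8.48 ± 0.947%. The region's share was above that of the genome in 8 of 8 pairs in stimulated CH12F3, 9 of 9 in unstimulated spleen, 5 of 6 in unstimulated CH12F3 and 3 of 9 in stimulated spleen. Counted the other way, Rad21 overlapped 32.9 ± 9.73% of NIPBL top peaks of the region in unstimulated spleen beside 14.0 ± 3.11% over the genome, and 13.6 ± 2.58% beside 4.75 ± 0.591% in stimulated CH12F3. It overlapped 9.80 ± 4.15% beside 8.46% in unstimulated CH12F3 and 6.55 ± 10.4% beside 8.47 ± 0.903% in stimulated spleen. With so few peaks per library, 6 to 21 Rad21 top peaks in the region in these groups, 1 peak more or less moves a share by several points.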

How the data were processed

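The submitters' processing notes name Bowtie2, MACS2 and the mm9 build, with no versions given. The authors deposited 1 broadPeak list per library, with a score, a fold enrichment (a ratio to the background) and −log10 p and −log10 q values per peak. Peak names in the deposited lists show a control for all Rad21 lists and, for NIPBL, only for replicate 2 of unstimulated and of stimulated CH12F3.

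The 20000 peaks of highest −log10 p in a library were its top peaks, and the percent of each 10 kb bin covered was compared with limma 3.58.1 (mean-variance trend, R 4.3.3) over bins covered in at least 2 libraries of the fit. Only bins of the region are printed, with Benjamini-Hochberg adjusted p over the genome. NIPBL and Rad21 were fitted separately, stimulation effects within each cell type and comparisons between cells over all libraries of the antibody. For Rad21 the 3 i3CBEs libraries were part of the fit of CH12F3 stimulation and of the fit between cells. They thus entered the estimate of the spread and the filter on covered bins there. Density per 100 kb window of all deposited peaks was added after the lists had been examined, with a pseudocount of 0.1. Single values were compared by two-sided exact permutation tests. The fits were tested on simulated data. Other numbers of top peaks, all peaks, a −log10 q of 5 or more, equal covered length, 5 kb bins, no filter and leaving out each replicate were tried.

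The locus, lists and sites were chosen with earlier results of these data known. Named were the bins of Myc, up to 10 called bins per comparison by size or else the 3 of smallest p, and up to 15 Rad21 and 10 NIPBL sites present in every library of a group. Replicate numbers paired the CH12F3 Rad21 libraries by the rule used, since libraries of the same number deviated together from their group means (r = 0.42, 0.65 and 0.38 over bins), although unstimulated replicate 3 correlated best with stimulated replicate 1 (0.44).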

Additional observations from a re-analysis of the deposited data

Results flagged for a closer look

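The effect of stimulation on Rad21 coverage differed between spleen and CH12F3 in 3 bins by an interaction test in limma, with all 3 more negative in spleen. The difference of effects was −35.4 points in chr15:62000001-62010000, −31.4 points in chr15:61370001-61380000 and −7.17 points in chr15:62040001-62050000. In chr15:62000001-62010000 and chr15:62040001-62050000 no CH12F3 library held a top peak in either state, and in chr15:61370001-61380000 1 of 3 unstimulated and 3 of 4 stimulated libraries did. The uneven length of the splenic Rad21 lists, 149409 to 1236385 peaks, stands beside these values, and its part in them was not tested.

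At the Rad21 site chr15:62011293-62014256 stimulated CH12F3 replicate 2 stood apart from the other 3 libraries of its group, with 90.7% of the site covered by top peaks and 0% in the others. It was the only one of 15 sets of values in the group of 4 libraries to stand apart. The nominal rate of about 1 in 20 for such a flag may not hold for values that the rank cut-off sets to 0%.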

How the results depend on the processing

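The main limit is that no list holds read counts, so a peak below the top 20000 counts as absent in 1 library and present in another. The density of all peaks sets no rank cut-off, but it takes each list at its deposited length, which differs between libraries. The direction of its difference between spleen and CH12F3 held for both antibodies and in both states in each fit without 1 library. As these groups did not overlap in region density, leaving out 1 library could not have turned that direction. Of 162 recomputed counts of called bins 110 stayed within 1.5 times the main count, and of 37 recomputed counts of called windows 34 did. The cause of the changes below was not tested, save that leaving out libraries leaves fewer samples and a filter changes the number of bins tested.

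With a replicate block, counts of called bins were 0 for NIPBL spleen stimulation, 5 for Rad21 spleen stimulation and 0 for Rad21 CH12F3 stimulation, the 4 calls of Rad21 in spleen without the block being among the 5. In spleen the replicate numbers did not pair the libraries (r of same-numbered libraries from −0.118 to 0.0267). For NIPBL in CH12F3, where 1 title of each state has no number and its list no named control, a replicate block by this split, added after the data were examined, gave 0 called bins, as without it (r of libraries on the same side 0.313). Within the same-numbered CH12F3 Rad21 pairs the replicate block gave a region coverage difference of 0.352 points (two-sided exact p = 0.25).

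The count of called bins in the region moved with the choice of peaks. Without a filter on covered bins it was 1 for NIPBL spleen stimulation, 0 for Rad21 spleen stimulation, 1 for Rad21 i3CBEs against CH12F3, 1 for NIPBL stimulated spleen against CH12F3, 1 for NIPBL stimulation in spleen against CH12F3. With equal covered length it was 1 for NIPBL spleen stimulation, 0 for Rad21 spleen stimulation, 4 for NIPBL stimulated spleen against CH12F3, 2 for NIPBL stimulation in spleen against CH12F3, 0 for Rad21 unstimulated spleen against CH12F3, 0 for Rad21 stimulated spleen against CH12F3, 0 for Rad21 stimulation in spleen against CH12F3. With all libraries of the antibody in 1 fit it was 3 for NIPBL CH12F3 stimulation, 1 for Rad21 i3CBEs against CH12F3. With 10000 top peaks it was 0 for Rad21 spleen stimulation, 0 for NIPBL unstimulated spleen against CH12F3, 1 for NIPBL stimulated spleen against CH12F3, 3 for Rad21 unstimulated spleen against CH12F3, 0 for Rad21 stimulated spleen against CH12F3, 0 for Rad21 stimulation in spleen against CH12F3. With 40000 top peaks it was 0 for Rad21 spleen stimulation, 0 for NIPBL unstimulated spleen against CH12F3, 4 for NIPBL stimulated spleen against CH12F3, 17 for Rad21 unstimulated spleen against CH12F3, 0 for Rad21 stimulation in spleen against CH12F3. With all deposited peaks it was 0 for Rad21 spleen stimulation, 9 for Rad21 i3CBEs against CH12F3, 27 for NIPBL unstimulated spleen against CH12F3, 19 for Rad21 stimulated spleen against CH12F3, 0 for Rad21 stimulation in spleen against CH12F3. With a −log10 q of 5 or more it was 0 for Rad21 spleen stimulation, 3 for Rad21 i3CBEs against CH12F3, 2 for NIPBL unstimulated spleen against CH12F3, 1 for Rad21 stimulated spleen against CH12F3, 0 for Rad21 stimulation in spleen against CH12F3. In 5 kb bins it was 1 for Rad21 i3CBEs against CH12F3, 2 for NIPBL unstimulated spleen against CH12F3, 2 for NIPBL stimulation in spleen against CH12F3. Leaving out 1 replicate gave counts of 0 to 1 for NIPBL spleen stimulation, 0 to 6 for Rad21 spleen stimulation, 0 to 1 for Rad21 CH12F3 stimulation, 1 to 7 for NIPBL unstimulated spleen against CH12F3, 1 to 2 for NIPBL stimulated spleen against CH12F3, 0 to 8 for NIPBL stimulation in spleen against CH12F3, 3 to 6 for Rad21 stimulation in spleen against CH12F3. Leaving out 1 replicate turned the sign of the region coverage difference in at least 1 fit, with ranges in percentage points of −0.00653 to 0.0492 for NIPBL spleen stimulation, −0.48 to 0.21 for NIPBL CH12F3 stimulation, −0.58 to 0.0346 for Rad21 unstimulated spleen against CH12F3. For windows it gave 0 to 1 for Rad21 i3CBEs against CH12F3. For region density it gave −1.92 to 0.654 for Rad21 CH12F3 stimulation. In single bins the sign also turned, with ranges of −5.38 to 3.24 for chr15 bin 61810001, Rad21 CH12F3 stimulation, −2.71 to 9.53 for chr15 bin 61810001, NIPBL unstimulated spleen against CH12F3. The region coverage difference changed sign with 10000 top peaks to −0.0284 for NIPBL spleen stimulation, 0.0475 for NIPBL CH12F3 stimulation, −0.0467 for Rad21 CH12F3 stimulation, with a −log10 q of 5 or more to −0.742 for NIPBL spleen stimulation, 0.787 for NIPBL CH12F3 stimulation. It also did so with equal covered length to −0.0497 for NIPBL spleen stimulation, 0.17 for NIPBL CH12F3 stimulation, 0.0041 for Rad21 spleen stimulation, with all deposited peaks to 0.275 for NIPBL CH12F3 stimulation, 3.9 for Rad21 spleen stimulation.

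Without the Rad21 lists of over 1000000 peaks the called windows numbered 10 for Rad21 unstimulated spleen against CH12F3 and 2 for Rad21 stimulated spleen against CH12F3. With an overlap of 50% of the peak the share of Rad21 peaks met by NIPBL was 12.1% in unstimulated spleen and 9.67% in stimulated CH12F3. The difference in percentage points changed sign in single bins, here by their start on chromosome 15. With all deposited peaks it was −3.66 in bin 61860001 for NIPBL spleen stimulation, −0.44 in bin 62280001 and 2.48 in bin 61980001 and −0.045 in bin 61810001 and 3.78 in bin 61820001 for NIPBL CH12F3 stimulation, 2.1 in bin 62040001 for Rad21 spleen stimulation, −3.58 in bin 62160001 for Rad21 CH12F3 stimulation, −6.33 in bin 61810001 for NIPBL unstimulated spleen against CH12F3, −9.17 in bin 61820001 for NIPBL stimulated spleen against CH12F3, −16.2 in bin 62040001 and −1.4 in bin 61990001 for Rad21 unstimulated spleen against CH12F3, 1.88 in bin 62640001 for Rad21 stimulated spleen against CH12F3, 3.63 in bin 62280001 and 2.75 in bin 62310001 and −1.94 in bin 61820001 for NIPBL stimulation in spleen against CH12F3, 1.7 in bin 62040001 and 0.753 in bin 61810001 for Rad21 stimulation in spleen against CH12F3. With a −log10 q of 5 or more it was −1.77 in bin 61870001 for NIPBL spleen stimulation, 2.88 in bin 61820001 for NIPBL CH12F3 stimulation, −1.77 in bin 62190001 for Rad21 spleen stimulation, −4.1 in bin 62160001 and −4.11 in bin 62100001 for Rad21 CH12F3 stimulation, −2.69 in bin 61810001 for NIPBL unstimulated spleen against CH12F3, −3.23 in bin 61820001 for NIPBL stimulated spleen against CH12F3, 2.14 in bin 62640001 for Rad21 stimulated spleen against CH12F3, −2.79 in bin 61820001 for NIPBL stimulation in spleen against CH12F3. With 40000 top peaks it was 2.02 in bin 61820001 for NIPBL CH12F3 stimulation, −5.36 in bin 62160001 for Rad21 CH12F3 stimulation, 0.766 in bin 62640001 for Rad21 stimulated spleen against CH12F3. With equal covered length it was 2.26 in bin 61810001 for Rad21 spleen stimulation, −7.64 in bin 62100001 and 9.8 in bin 61810001 for Rad21 CH12F3 stimulation, 4.96 in bin 62160001 for Rad21 i3CBEs against CH12F3. With 10000 top peaks it was 11.1 in bin 61810001 for Rad21 stimulation in spleen against CH12F3.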
